A study of Mus musculus with 167 samples.

Results

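MicroRNA levels were compared between 10 month livers of mice carrying the Q92 *Htt* allele and those of control mice of the same age. The comparison comprised 24 of the 167 livers of the series, 8 Q92 livers against 16 controls, of which 8 were Q20 and 8 were wild type (WT), and the libraries were chosen by their genotype and age labels. Q92 mice were heterozygous, with 1 wild-type *Htt* allele and 1 knock-in allele whose CAG repeat has a nominal length of 92, and Q20 mice carried a knock-in allele of 20 repeats, which lies in the normal range. The WT mice were littermates of the Q20 line, all mice were on the C57BL/6 strain, and none had received a treatment per the labels. By label, 4 Q92, 5 Q20 and 4 WT mice were female. The labels give the Q92 mice as housed with the Q92 line and both control groups as housed with the Q20 line, in cages that per the methods also held WT mice, so allele, line and housing cannot be told apart.

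MicroRNAs are cut from hairpin precursors and guide the silencing of messenger RNAs that pair with their seed, the stretch near the 5′ end that reads the target. Many of them are made in 1 tissue or cell type above all others, so that a liver profile holds hepatocyte microRNAs such as Mir122 together with those of bile duct epithelium, endothelium, stellate cells and blood. Huntingtin, the product of *Htt*, is made in liver as well as in brain, and the comparison asked whether an expanded allele was accompanied by other microRNA levels outside the brain.

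The mature sequences of the microRNAs on which the results turn are given here, so that related members can be seen side by side, with the seed (bases 2 to 8) in capitals. For each precursor the arm usually described as functional is shown, although the counts are per precursor and do not separate the arms. Sequences are from RefSeq (GRCm38.p6), where 235 of the 314 tested precursors had an entry by symbol. Mir205, an epithelial microRNA, lies at chr1:193507463-193507530 on the minus strand, in an exon of the long noncoding RNA gene 4631405K08Rik.
Mir205: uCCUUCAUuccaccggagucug
The Mir200 family, which keeps cells epithelial by silencing Zeb transcription factors, has 5 precursors with 2 seeds that differ in a single base. Mir200b, Mir200a and Mir429 lie within 1846 bases on chromosome 4, and Mir200c and Mir141 within 477 bases on chromosome 6.
Mir200b: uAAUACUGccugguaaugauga
Mir429: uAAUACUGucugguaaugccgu
Mir200c: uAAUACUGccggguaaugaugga
Mir200a: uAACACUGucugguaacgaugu
Mir141: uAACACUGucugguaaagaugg
Mir183, Mir96 and Mir182 form a cluster of 3820 bases on chromosome 6, best known from sensory epithelia.
Mir183: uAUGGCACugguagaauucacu
Mir96: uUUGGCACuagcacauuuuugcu
Mir182: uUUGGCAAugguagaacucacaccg
Mir144 and Mir451a, the erythroid microRNAs made from a joint transcript, lie within 237 bases on chromosome 11.
Mir144: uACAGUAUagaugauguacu
Mir451a: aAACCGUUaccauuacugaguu
Mir10b, embedded between genes of the Hoxd cluster, is shown because its level differed widely among the Q92 livers.
Mir10b: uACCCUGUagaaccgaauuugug

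Total counts, in units of 1000000 counts, ran from 2.35 to 4.36 per library, with 3.02 ± 0.385 (SD, n = 8) in Q92 and 3.19 ± 0.605 (SD, n = 16) in controls. Mir122, which defines hepatocytes, was present in each liver, at 7389 to 26188 CPM (counts scaled to a library total of 1000000) in Q92 and 8909 to 29514 CPM in controls. The sequencing lanes were shared between groups except for lane 1, which held 2 control libraries and no Q92 library. In 1 control library a label was contradicted: the liver labelled Q20 F1 (a female) had 57.5 CPM of Mir592 and 514 CPM of Mir1948, microRNAs that differ between the sexes in liver, where the other 12 females lay at 1.13 to 7.07 and 37.9 to 64.2 CPM and the 11 males at 32.2 to 86.0 and 292 to 663 CPM. The study's methods give equal numbers of males and females per genotype.

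Among the Q92 livers F2, F3 and F4, all female, stood apart in markers of several tissues. Their summed CPM over the 9 striated muscle precursors in the table was 130, 93.7 and 177, against 3.88 to 16.8 in the other 5 Q92 livers and 1.54 to 45.4 in controls. Mir133b and Mir206, known from skeletal muscle, were at 0 in all 24 libraries, and Mir208a and Mir208b, also members of this list, did not exceed 1 count. The summed level of the 6 mesenchymal precursors (stellate cells, fibroblasts and smooth muscle) was 42664, 52949.5 and 122999 CPM in F2, F3 and F4, against 21025 to 26323 in the other Q92 livers and 15828 to 30077 in controls. This sum was nearly all Mir143. Mir145a and Mir199b in these livers also lay above all controls, Mir199b in Q92 F1 as well, while Mir199a-1, Mir199a-2 and Mir214 lay within the control range. The summed level of the 11 epithelial precursors was 5125 and 8757 CPM in F2 and F4 and 3697 in F3, against 3457 to 4872 in the other Q92 livers and 2487 to 4801 in controls. The pancreas list of 4 precursors summed to 38.4, 25.0 and 148 CPM in F2, F3 and F4, nearly all of it Mir375, against 3.56 to 8.93 in the other Q92 livers and 3.83 to 22.7 in controls, while Mir216a, Mir216b and Mir217 stayed at 2 counts or fewer. The summed level of the 10 hepatocyte precursors was 629718, 612890 and 580175 CPM in F2, F3 and F4, against 619008 to 662125 in the other Q92 livers and 615778 to 683187 in controls, so that F3 and F4 lay below all controls. CPM is a share of the library total, and Mir143 took 50518 CPM in F3 and 120155 CPM in F4, against 14110 to 27697 in controls. Such a share by itself lowers the CPM of the other precursors, so the lower hepatocyte sums do not show a loss of hepatocyte microRNAs. In F4 Mir122 was at 7389 CPM, against 19699 to 26188 in the other Q92 livers and a control minimum of 8909, and Mir22 was at 65957 CPM. The sample names of F2, F3 and F4 share a code that no other Q92 library of this age has, which the labels do not explain. Results of the comparison with controls are therefore given with these 3 livers and, for many precursors, also without them. The tests of sex, age and the other expanded alleles include these livers throughout. The part that other tissue had in them was not tested. In bulk tissue, fewer cells of a type and less RNA per cell cannot be told apart.

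Of 314 precursors tested, 1 was called at an adjusted p-value below 0.05 (edgeR quasi-likelihood test with Benjamini-Hochberg adjustment), which is 0.318% of them. The called precursor, Mir205, was higher in Q92. The log2 changes centered on 0, with a median of -0.00 and 156 of 314 (49.7%) above 0, and no precursor had Q92 livers that were entirely outside the control range. At an unadjusted p-value below 0.05 there were 27 precursors (8.6%), 23 higher and 4 lower in Q92. The precision was sufficient to place the 95% interval of the log2 change within -1 to 1 for 221 precursors (70.4%), and the median standard error (SE) was 0.21. Leaving out Q92 F2, F3 and F4 gave 0 calls and 19 unadjusted p-values below 0.05 (6.05%), of which 8 were higher, and 43.6% of the log2 changes were then above 0. Leaving out single libraries moved the count from 1 to 11 (without Q92 F1), to 4 (without Q92 F3 or WT M1), to 2 (without Q20 M1, Q20 M3 or WT M4) or to 0 (without Q92 F2, Q92 F4, Q92 M1, Q92 M4, WT M2, WT F3, WT F4 or Q20 F5).

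**Figure D1:**
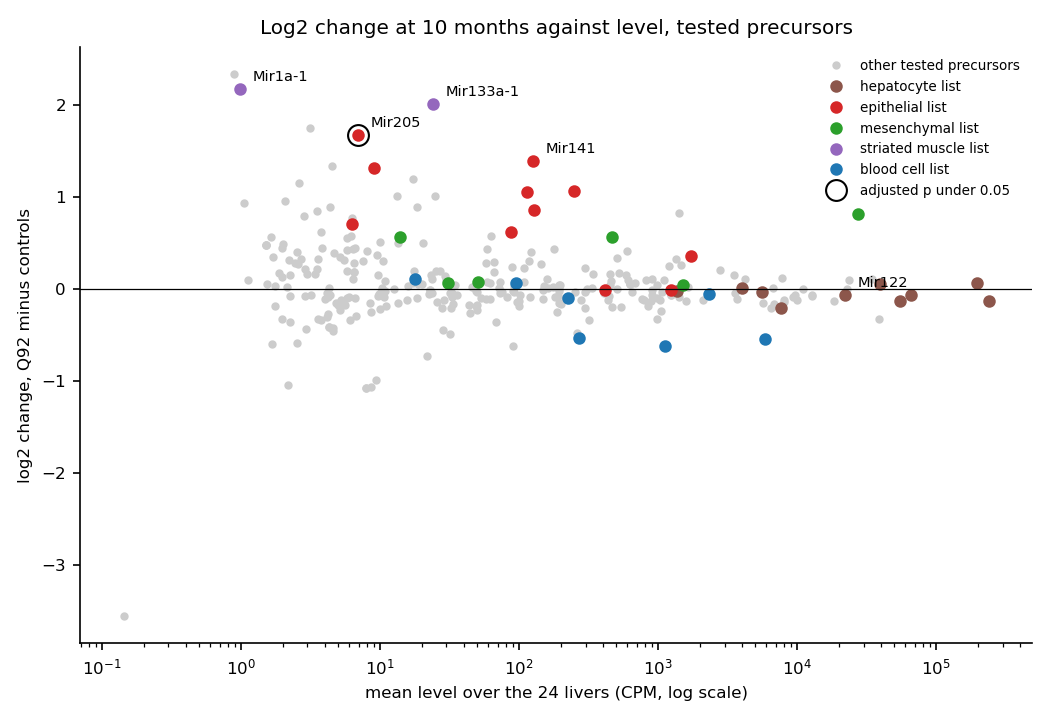
Log2 change between Q92 and control livers at 10 months (vertical axis) against the mean level over the 24 livers in CPM (horizontal log axis), 1 point per tested precursor (314), with members of 5 marker lists colored and the called precursor circled. Mir205 is the single circled point, the colored epithelial and muscle points lie mainly above 0, and the hepatocyte points lie close to 0.

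Mir205 was higher on average in Q92 livers than in controls. Its level was 3.49 CPM in the lowest Q92 liver, 6.89 at the median and 34.7 in the highest, against 1.23, 3.96 and 7.69 CPM in controls, or 9 to 109 counts per Q92 library and 4 to 28 counts per control library. The groups overlapped: F4 (34.7 CPM), F2 (25.0 CPM) and M1 (9.35 CPM) lay above all controls, 6 of 8 Q92 livers lay above the control median, and M2 and M3 lay just below it. Of all 314 tested precursors, 59 (18.8%) had at least 6 of 8 Q92 livers above the control median and 40 (12.7%) had at least 6 below it. The log2 change was 1.67 ± 0.35 (SE, edgeR adjusted p = 0.0295). Without F2, F3 and F4 the change was 1.06 (edgeR adjusted p = 0.613).

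The call of Mir205 depended on single livers, on the choice of controls and on the fit. With outlying values replaced by the rule of the study's methods the log2 change was 1.03 (edgeR adjusted p = 0.362), and the edgeR adjusted p was 0.0724 without the lane term, 0.18 with the replicate block and 0.247 with all genotypes in 1 fit. The edgeR adjusted p was 0.248 without Q92 F2, 0.221 without Q92 F4, 0.0986 without Q92 M1, 0.0569 without Q92 M4, 0.0557 without WT M2, 0.0731 without WT F3, 0.0561 without WT F4 and 0.0557 without Q20 F5, and over all 39 alternatives it ranged from 0.00017 to 0.625. The log2 change stayed positive, between 0.92 and 1.86. Against Q20 alone it was 1.81 (adjusted p = 0.32 by edgeR) and against WT alone 1.49 (adjusted p = 0.625 by edgeR). Within lanes, the difference in mean log2(CPM + 0.5) was 0.18 in lane 2, 1.84 in lane 3 and 1.15 in lane 8, and within sexes 1.32 in females and 1.05 in males, so each was positive. Lane 3 held Q92 F4 and lane 8 held Q92 F2 and F3, while the Q92 livers of lane 2 were M1 and M3. With the library labelled Q20 F1 coded as male, the edgeR adjusted p was 0.0574.

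**Figure D2:**
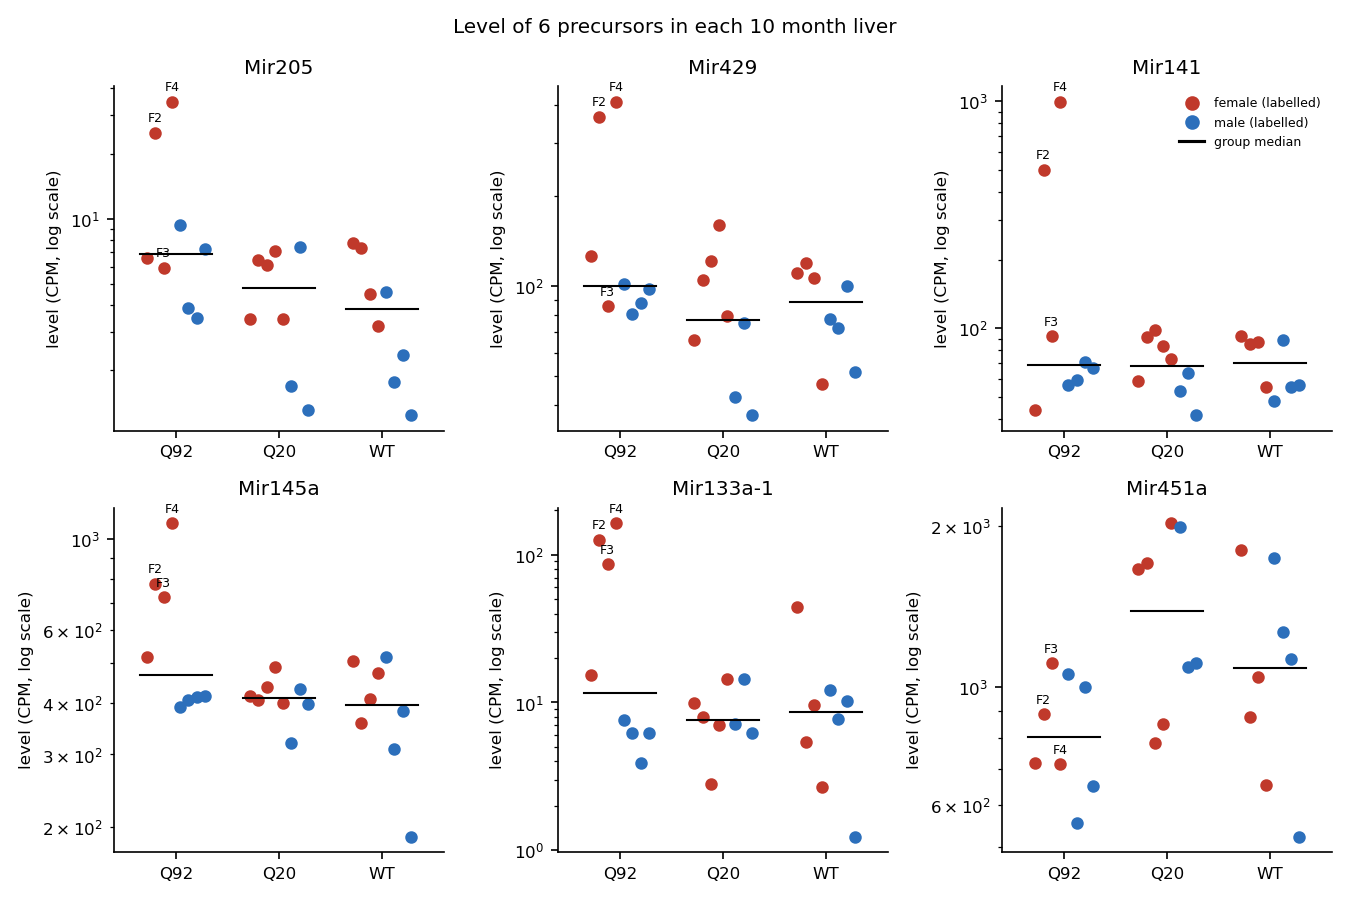
Level in CPM (vertical log axis) of 6 precursors in each 10 month liver, by group, with points colored by labelled sex and black lines at group medians. Q92 F2 and F4 are the highest points for Mir205, Mir429 and Mir141, F2, F3 and F4 for Mir145a and Mir133a-1, and for Mir451a all 8 Q92 livers lie at or below 1106 CPM.

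The precursors whose levels followed that of Mir205 most closely across the 24 livers were Mir429, Mir200b, Mir200a, Mir1247 and Mir30d, with Spearman correlations of 0.78, 0.76, 0.73, 0.72 and 0.67. Over the 16 controls alone these were 0.76, 0.72, 0.68, 0.86 and 0.73, so the correlations were of similar size without the Q92 livers. The points share the total count of each library.

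Among the 11 epithelial precursors, all tested, 1 was called (Mir205), 9 had a log2 change above 0 and 8 had an unadjusted p below 0.05, all 8 higher (7.32% of all tested precursors were higher at that level). The median log2 change was 0.86, against -0.00 over all 314. Without F2, F3 and F4 the median was 0.27, with 5 higher at an unadjusted p below 0.05, against a median of -0.03 and 2.55% over all precursors. The list was drawn up with earlier results of these data known, so its direction is not independent evidence.

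None of the 5 Mir200 family members passed the adjusted threshold. Mir200b, from the chromosome 4 cluster, was at 154, 188 and 1328 CPM in the lowest, median and highest Q92 liver, against 81.2, 165 and 357 CPM in controls, a log2 change of 1.06 ± 0.28 (edgeR adjusted p = 0.087). Mir429, which shares its seed and its cluster, was at 80.9, 99.7 and 411 CPM in Q92 and 37.1, 78.3 and 160 CPM in controls, a log2 change of 1.05 ± 0.26 (edgeR adjusted p = 0.087). All 8 Q92 livers lay above the control median of Mir429, and the groups overlapped. Mir200a, the third gene of that cluster, had a log2 change of 0.86 ± 0.26 (edgeR adjusted p = 0.121). Its counts and those of Mir141 were fractional in 95.8% of the libraries, as when reads are divided between similar precursors, so their separate values are uncertain.

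In both clusters the high levels were those of F2 and F4. For Mir200b, Mir429 and Mir200a they were the only Q92 livers above all controls, and the same held for the chromosome 6 pair. Mir141 was at 499 CPM in F2 and 996 CPM in F4, against 43.9 to 92.5 in the other 6 Q92 livers and 41.4 to 98.6 in controls, and its log2 change of 1.39 ± 0.44 (edgeR adjusted p = 0.137) became -0.27 without F2, F3 and F4. Mir200c was at 49.9 and 47.1 CPM in F2 and F4, against 3.13 to 7.24 in the other Q92 livers and 1.85 to 10.2 in controls, with a log2 change of 1.31 ± 0.43 that became -0.35. For both of them, then, the levels outside F2 and F4 lay within the control range. Without the 3 livers the change was 0.47 for Mir429, 0.36 for Mir200b and 0.27 for Mir200a, with unadjusted edgeR p-values of 0.0303, 0.037 and 0.132 and no call. The difference between the clusters was not tested.

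The Mir183 cluster had another distribution. Mir183 was at 54.4, 108 and 141 CPM in the lowest, median and highest Q92 liver, against 20.4, 76.3 and 163 CPM in controls, and 7 of 8 Q92 livers lay above the control median. Its log2 change was 0.61 ± 0.19 (edgeR adjusted p = 0.137) and 0.64 without F2, F3 and F4. Mir96 was at 5.10, 7.59 and 15.8 CPM in Q92, above the control median of 4.74 CPM in 8 of 8 livers, with a log2 change of 0.71 ± 0.29 (edgeR adjusted p = 0.396) and 0.90 without the 3 livers. The highest levels of both were in males (M3 and M4), unlike those of the Mir200 family. Mir182 had a log2 change of 0.36 ± 0.22, Mir203, a microRNA of skin, -0.01 ± 0.11 and Mir31 -0.01 ± 0.10.

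**Figure D3:**
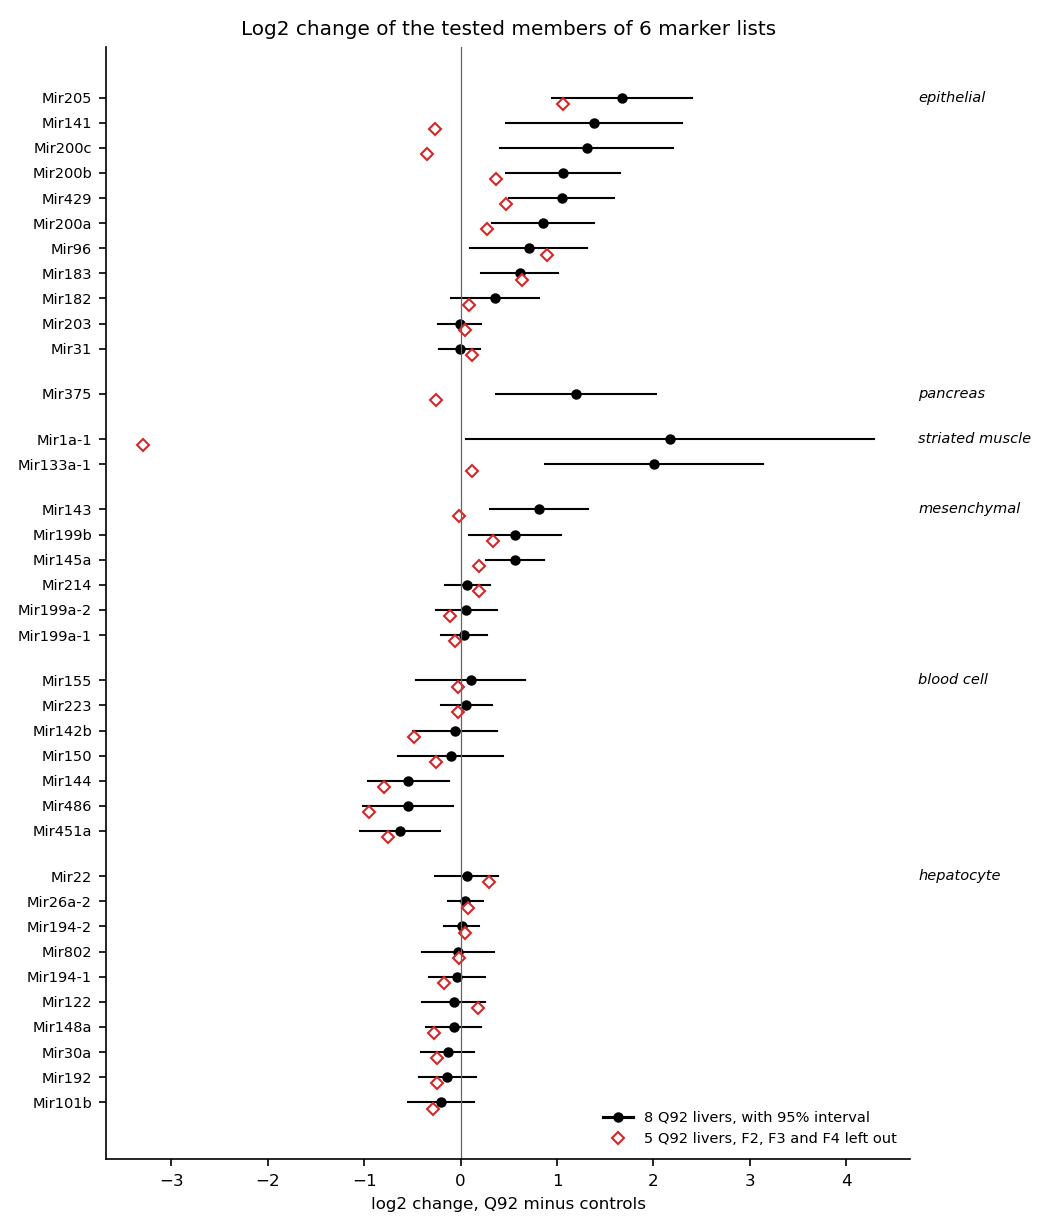
Log2 change between Q92 and control livers (horizontal axis) of the tested members of 6 marker lists, with black points and 95% intervals for all 8 Q92 livers and open red diamonds for the 5 livers left when F2, F3 and F4 are left out. Mir141, Mir200c, Mir375, Mir1a-1, Mir133a-1 and Mir143 move to about 0 or below when the 3 livers are left out, Mir183, Mir96 and the blood cell members Mir144, Mir486 and Mir451a keep or enlarge their change, and the hepatocyte members lie near 0 in both.

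Mir133a-1, Mir1a-1, Mir143 and Mir145a, microRNAs of striated and smooth muscle, were higher in Q92 F2, F3 and F4 than in all other livers of the comparison. Mir133a-1, a microRNA of skeletal and heart muscle, was at 126, 86.2 and 163 CPM in these livers, against 3.88 to 15.4 in the other 5 and 1.23 to 44.3 in controls. The log2 change was 2.00 ± 0.54 (edgeR adjusted p = 0.087) and 0.12 without them. Mir1a-1, of the family cotranscribed with Mir133a, was at 3.52, 5.26 and 7.62 CPM in the same 3 livers, at 0 in all 4 Q92 males and at 0 to 1.47 CPM in controls, with a log2 change of 2.17 ± 0.997 (edgeR adjusted p = 0.535). Of the 9 striated muscle precursors, 2 were tested, 0 were called and both were higher at an unadjusted p below 0.05 (7.32% of all tested precursors were), with a median log2 change of 2.09. Among the 24 livers, Mir1a-1 reached the filter minimum of 10 counts in F2, F3 and F4 alone (11, 16 and 23.9 counts). It had at most 5 counts in any control. Within this comparison it thus met the filter only where it was high, and its part in this count and median is not evidence of a difference. Without the 3 livers Mir1a-1 was at or near 0 in all remaining Q92 livers, so the fitted median of -1.59 gives no size of a difference.

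Mir143 and Mir145a, which are transcribed together and are known for smooth muscle and stellate cells, showed a similar split. Mir143 was at 39855, 50518 and 120155 CPM in F2, F3 and F4, against 19204 to 24463 in the other 5 Q92 livers and 14110 to 27697 in controls (log2 change 0.82 ± 0.24, edgeR adjusted p = 0.121). Mir145a was at 779, 723 and 1092 CPM in these 3, against 391 to 517 and, in controls, 189 to 517 CPM (log2 change 0.57 ± 0.15, edgeR adjusted p = 0.087). Without the 3 livers the log2 changes were -0.02 and 0.19. All 6 mesenchymal precursors were tested and had a log2 change above 0 (49.7% of all tested precursors had), 0 were called and 3 were higher at an unadjusted p below 0.05 (7.32% of all). The median was 0.32, and 0.09 without the 3 livers. Mir199b, the third of those 3, had a log2 change of 0.57 ± 0.23 (edgeR adjusted p = 0.393).

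Mir375, known from pancreatic islets and other endocrine cells, was at 38.4, 25.0 and 147 CPM in F2, F3 and F4, against 3.26 to 8.50 in the other Q92 livers and 3.75 to 22.7 in controls, a log2 change of 1.20 ± 0.40 (edgeR adjusted p = 0.149) that became -0.26 without them. It was the single tested member of the pancreas list. Mir92b, which shares its seed with the Mir92 family, had a log2 change of 0.88 ± 0.26 (edgeR adjusted p = 0.121), with 50.2 and 56.7 CPM in F2 and F4 against 11.1 to 20.2 in the other Q92 livers and 7.10 to 25.8 in controls.

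The erythroid microRNAs had the smallest p-values among precursors with lower levels in Q92. Mir451a was at 556, 804 and 1106 CPM in the lowest, median and highest Q92 liver, against 524, 1117 and 2024 CPM in controls, and its neighbor Mir144 at 165, 213 and 250.5 CPM against 168, 296 and 539 CPM. All 8 Q92 livers lay below the control median of both, and the groups overlapped. The log2 change of Mir451a was -0.63 ± 0.20 (edgeR adjusted p = 0.137) and that of Mir144 was -0.54 ± 0.20 (edgeR adjusted p = 0.283). Mir486, an erythroid microRNA in an intron of *Ank1*, was lower in 7 of 8 livers than the control median, with a log2 change of -0.54 ± 0.23 (edgeR adjusted p = 0.396). Of the 7 blood cell precursors tested, 0 were called and 3 were lower at an unadjusted p below 0.05 (1.27% of all tested precursors were). The white cell members Mir142b, Mir223, Mir150 and Mir155 had log2 changes of -0.06 ± 0.21, 0.06 ± 0.13, -0.10 ± 0.26 and 0.10 ± 0.27. The summed level of the list was 5498 to 11616 CPM in Q92 and 6670 to 17913 CPM in controls. Without F2, F3 and F4 the changes were -0.75 for Mir451a, -0.80 for Mir144 and -0.95 for Mir486. When the livers of all genotypes at 10 months were fitted together, Mir451a was called lower in place of Mir205. Its mean level was 836 CPM in Q92, 698 in Q80, 911 in Q111, 854 in Q140 and 1076 in Q175, against 1402 in Q20 and 1130 in WT. Mir144 and Mir486 also had lower means in each expanded allele than in Q20 and WT. Lower erythroid levels were therefore not particular to Q92.

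The remaining precursors with the smallest p-values among lower levels did not pass the threshold. They were Mir106b (log2 change -0.19 ± 0.09) and Mir25 (-0.24 ± 0.14), from the same intronic cluster of *Mcm7*, Mir328 (-0.14 ± 0.08), Mir292 (-0.59 ± 0.33), Mirlet7c-1 (-0.33 ± 0.19) and 2 precursors without a symbol, ENSMUST00000175039 and ENSMUST00000175294 (both -1.08 ± 0.61), whose fractional counts were alike in each library and are not separate observations.

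MicroRNAs of hepatocytes showed log2 changes near 0. The 6 precursors with the largest share of counts, Mir192, Mir22, Mir148a, Mir30a, Mir26a-2 and Mir21a, together took 63.4% of the counts on average. Mir192, a liver and gut microRNA, was at 182980 to 294740 CPM in Q92 and 188214 to 395653 in controls, a log2 change of -0.14 ± 0.14 with a 95% interval from -0.43 to 0.16. Mir122, which supports cholesterol synthesis and is restricted to hepatocytes, had a log2 change of -0.07 ± 0.16, with an interval from -0.40 to 0.26. Mir22 had 0.06 ± 0.16, Mir148a -0.07 ± 0.14 and Mir101b -0.20 ± 0.17. Of the 10 hepatocyte precursors tested, 0 were called, 0 had an unadjusted p below 0.05 (8.6% of all tested precursors had) and 3 had a log2 change above 0 (49.7% of all), with a median of -0.05. Mir126a of endothelium had a log2 change of 0.09 ± 0.11.

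Other groups of microRNAs held no call. Over all 314 tested precursors, 8.6% had an unadjusted p below 0.05, and the counts of each list below stand beside that share. Of 11 tested precursors studied in liver injury and regeneration, 1 had an unadjusted p below 0.05. This was Mir29b-1, a regulator of collagen genes, above the control median in 8 of 8 Q92 livers with a log2 change of 0.43 ± 0.17 (edgeR adjusted p = 0.381), although its counts were fractional in all libraries. Its copy Mir29b-2 had -0.36 ± 0.22, and Mir21a, an injury-responsive microRNA, -0.33 ± 0.22. All 10 let-7 precursors had log2 changes below 0 (158 of all 314 had), with a median of -0.15 and no unadjusted p below 0.05, and without F2, F3 and F4 the median was -0.06 with 4 above 0. Except for Mir98 their counts were fractional, so they are not fully separate observations. The 10 tested precursors of the imprinted Dlk1-Dio3 cluster, which is made as a single long transcript, had a median of 0.18 (Mir127 0.43 ± 0.31, Mir410 0.36 ± 0.42 and Mir376c -0.31 ± 0.58), and -0.53 with all 10 below 0 without the 3 livers. Without these livers 43.6% of all tested precursors had a log2 change above 0. The 9 neuronal precursors had a median of 0.19 with 0 unadjusted p-values below 0.05, the 11 of the Mir17-92 cluster and its paralogs -0.08 with 1 (Mir106b), the 8 studied in lipid and glucose metabolism -0.02 with 1 (Mir143), and the 8 that differ between the sexes -0.45 with 0.

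Of 5 microRNAs singled out in Q92 livers of other ages, 0 were called at 10 months and 1, Mir133a-1, had an unadjusted p below 0.05 (8.6% of all tested precursors had). The level of Mir10b was 178 CPM in the lowest Q92 liver, 679 at the median and 11710.1 in the highest, against 431, 793 and 1856 CPM in controls. F2, F3 and F4 held 1726, 2921 and 11710.1 CPM while the other 5 Q92 livers held 178 to 798 CPM. F3 and F4 lay above all controls and F1 and M1 below all controls. The log2 change was 0.83 ± 0.53 (edgeR adjusted p = 0.735), and -1.38 without the 3 livers (edgeR adjusted p = 0.353). Mir874 had a log2 change of 0.10 ± 0.12, Mir328 of -0.14 ± 0.08 and Gm24111 of -0.19 ± 0.11.

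To ask whether the Q92 difference was the same in both sexes, the interaction of allele and sex was tested. Of 314 precursors 0 were called (0% of those tested) and 40 had an unadjusted p below 0.05 (12.7%), with a lower value in males for 27 (8.6%) and a higher value for 13 (4.14%). DESeq2 made 6 calls. The smallest p-values were those of Mir34c, a p53 target, with a male minus female value of -1.70 ± 0.42 (edgeR adjusted p = 0.119), Mir143 with -1.68 ± 0.42 (edgeR adjusted p = 0.119) and Mir141 with -2.69 ± 0.74 (edgeR adjusted p = 0.149). In mean log2(CPM + 0.5), Mir141 differed from controls by 1.42 in females and 0.16 in males, and Mir143 by 1.12 and 0.15. Mir133a-1 differed by 3.07 and -0.26. The interaction value of Mir205 was -0.65 ± 0.81. The livers with high Mir133a-1 and Mir143 levels (F2, F3 and F4) were all female, so sex and these livers cannot be told apart here.

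Against the mean of the other expanded alleles (Q80, Q111, Q140 and Q175, 31 livers), 0 of 314 precursors were called (0%) in the 10 month Q92 livers, and 0 had an unadjusted p below 0.05. DESeq2 also made 0 calls, with 1 unadjusted p below 0.05. Levels varied widely among the livers of the other alleles (Mir205 in Q111 had a mean of 32.4 CPM with an SD of 53.7). The absence of calls does not show that the groups were alike. The smallest p-values were those of Mir143 (Q92 minus the others 0.46 ± 0.23), Mir1943 (-0.47 ± 0.24) and Mir3082 (0.29 ± 0.17), and for Mir205 the value was 0.51 ± 0.47. Among all 55 livers of this age, the highest Mir205 levels were in Q111 M4 (156 CPM), Q111 F2 (61.6), Q92 F4 (34.7), Q92 F2 (25.0) and Q111 F4 (20.6). The same 5 livers had the 5 highest summed levels of the Mir200 family, with 9813 CPM in Q111 M4, 3309 in Q92 F4, 2951 in Q111 F2, 1925 in Q92 F2 and 1481 in Q111 F4. High levels of these epithelial microRNAs in single livers were seen in Q111 as well as in Q92. The same held for the muscle microRNAs, which were chosen here after their values were seen. Mir133a-1 was highest in Q175 F4 (10392 CPM), Q175 F3 (690.4 CPM) and Q111 M4 (377 CPM), ahead of Q92 F4 and F2. Mir145a was highest in Q175 F3 (1743 CPM) and Q111 M4 (1353 CPM), and Mir143 was at 94695 CPM in Q111 M4 and 88449.5 CPM in Q175 F3, behind Q92 F4. The Q92 median of the summed family, 458 CPM, lay between the WT and Q20 medians of 399 and 400.2 CPM and the Q175 median of 506 CPM.

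**Figure D4:**
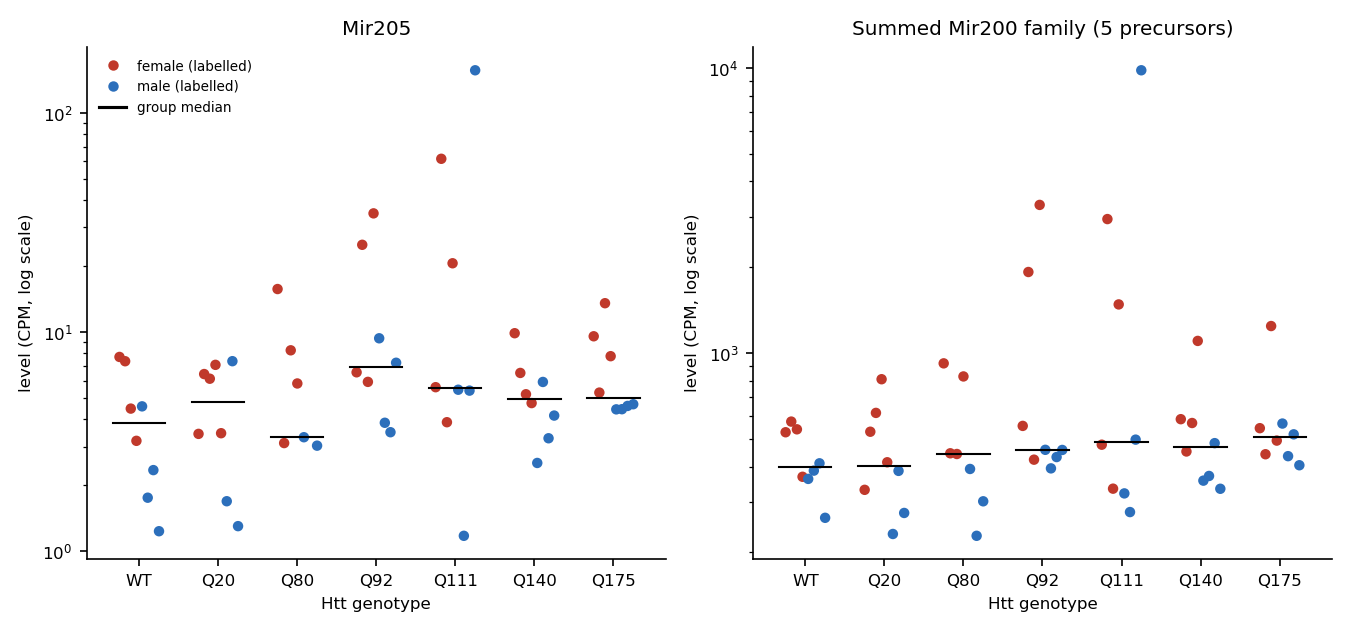
Level in CPM (vertical log axis) of Mir205 (left) and of the 5 Mir200 family precursors summed (right) in each 10 month liver by *Htt* genotype, with points colored by labelled sex and black lines at group medians; 1 Q80 liver with 0 CPM of Mir205 is not drawn. The highest points belong to Q111 and Q92 livers, and the group medians lie close together.

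At 2 months, with Q20 and WT as controls as at 10 months, Mir205 was at 1.68, 4.65 and 8.91 CPM in the lowest, median and highest Q92 liver, and its log2 change was -0.12 ± 0.29. At 6 months, with Q20 alone as controls, Q92 livers were at 0 to 9.29 CPM and the log2 change was -0.25 ± 0.56. The interaction of allele and age between 2 and 10 months gave 0 calls among 315 precursors (0%) and 34 unadjusted p-values below 0.05 (10.8%), 22 with a higher value at 10 months (6.98%) and 12 with a lower value (3.81%). DESeq2 made 10 calls. The smallest p-values belonged to Mir429, whose log2 change moved from -0.35 ± 0.22 at 2 months to 1.05 ± 0.26 (difference 1.38 ± 0.35), Mir205 (difference 1.76 ± 0.46) and Mir200b (difference 1.34 ± 0.37), each with an edgeR adjusted p of 0.0518. Mir451a moved the other way, from 0.28 ± 0.17 to -0.63 ± 0.20. Mir133a-1 had positive log2 changes at the 3 ages, 0.34 ± 0.69, 1.35 ± 0.55 and 2.00 ± 0.54, with a difference between 2 and 10 months of 1.64 ± 0.92. It was among the microRNAs singled out at other ages, so its values there are not independent evidence. At 2 months its mean level was 11.7 CPM in Q92, 11.4 in Q20 and 14.3 in WT. All these 10 month values include Q92 F2, F3 and F4, and the interaction was not tested without them. Without those livers the 10 month changes of Mir429, Mir205, Mir200b and Mir133a-1 were smaller, as given above.

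**Figure D5:**
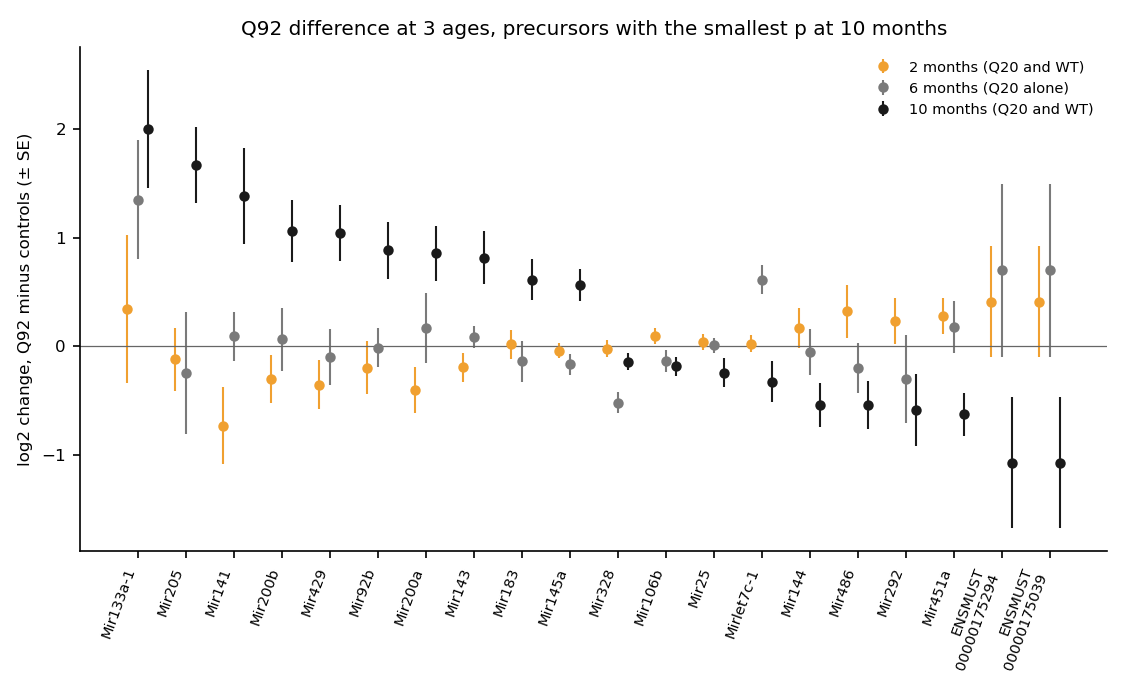
Log2 change between Q92 and control livers (vertical axis, with SE) at 2, 6 and 10 months for the 10 precursors with the smallest p-values in each direction at 10 months, ordered by their 10 month value. The 10 month points of Mir205 and of the Mir200 family members drawn (Mir429, Mir200b, Mir200a and Mir141) lie above 0 while their 2 month points lie below 0. Mir133a-1 lies above 0 at each age, with an SE that reaches below 0 at 2 months.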

How the data were processed

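RNA enriched for short fragments from flash-frozen liver was sequenced as single-end 36-base reads. Per the study's methods, clipped reads were aligned by the authors to mouse genome mm10 with STAR and counted per gene, and the submitters' processing notes name CASAVA 1.8.2. The deposited table holds expected counts (estimated counts, many of them fractional) for 1626 Ensembl precursors, and how the fractions arose is not given in the sources used here. They were rounded to whole numbers before testing. A deposited FPKM table was not used.

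Identifiers were matched to GENCODE M21 (1228 of 1626). CPM is the count relative to the library's total count, without further scaling. Precursors with at least 10 counts in at least 7 of the 55 libraries of 10 months were tested in edgeR 4.0.16 (R 4.3.3), by the quasi-likelihood F test with TMM factors, labelled sex and sequencing lane as covariates and Benjamini-Hochberg adjustment over all tested precursors (adjusted p below 0.05). Each SE was taken from the log2 change and its F value. Alternatives included DESeq2 1.42.0. The tables were read and drawn with data.table (version 1.17.8), pandas and matplotlib. The fit was tested on simulated data that held no sex, lane or single-liver effects, so that test does not bear on livers such as Q92 F2, F3 and F4. Per the study's methods each library is from a different mouse, and no 2 libraries of a group agreed within counting noise (lowest chi-square per degree of freedom 39.4 over 84 pairs), so none was taken as deposited again. Molecular identifiers were not used, and counts may therefore vary by more than sampling of reads.

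Members and lists were chosen with earlier results of these data known. Named were the called precursors, the 10 smallest p-values in each direction, the 6 largest shares of counts, the 2 to 4 largest changes of each list, the microRNAs singled out at other ages, the 5 closest to each called precursor by Spearman correlation, and the 3 smallest p-values of each other test. For the marker lists, further members and the summed Mir200 family were named after their values were seen.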

Additional observations from a re-analysis of the deposited data

Results flagged for a closer look

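For 54 named precursors in each group of 8 livers, the gap between the extreme liver and its neighbor was compared with the whole range on log2(CPM + 0.5). It exceeded Dixon's critical value of 0.526 in 9 of 162 groups (5.56%), where chance gives about 1 in 20.

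Of these, 4 concerned Q92 F4 as the lowest Q92 liver, with 65957 CPM of Mir22 (185103 to 238623 in the others), 15747 CPM of Mir126a (22702 to 29167), 352 CPM of Mirlet7c-1 (691 to 1083) and 51.6 CPM of Mir328 (80.9 to 104). A further 3 concerned WT M4 as the lowest WT liver, with 52.2 CPM of Mir328 (93.2 to 114), 347 CPM of Mirlet7c-1 (855 to 1808) and 583 CPM of Mir25 (953 to 1387). WT M4 also had the lowest TMM factor of the 24 libraries, 0.63, and that of Q92 F4 was 0.84. In Q20 M3, Mir26a-2 was at 24955 CPM (35333 to 47639 in the other Q20 livers). In Q92 M2, Mir376c was at 8.30 CPM, the highest Q92 liver (0.85 to 2.63 in the others).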

How the results depend on the processing

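The count of calls was 1 in the comparison as reported, and also with RLE factors, robust dispersions, lane 1 left out and Q20 F1 left out. It was 28 without the low-count filter (18 higher and 10 lower of 1100 tested) and 5 with DESeq2 (Mir205, Mir429, Mir200b, Mir133a-1 and Mir145a). It was 0 with the stricter filter (at least 50 counts in at least 12 libraries, which leaves 196 precursors without Mir205), with outlying values replaced by the bisquare rule of the study's methods (350 of 17270 values, 6 of them of Mir205), without the lane term, with Q20 or WT alone, with Q20 F1 coded as male, and, chosen after seeing the data, without Q92 F2 and F4 or without F2, F3 and F4. With all genotypes in 1 fit it was 1, Mir451a. Leaving out single libraries gave 0 to 11 calls. With the replicate block it was 0, but same-numbered libraries deviated together in only 7 of 22 pairs (correlation over 0.1, range -0.26 to 0.33), so the numbers do not pair the livers.

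The sex interaction gave 17 calls without the filter and 6 with DESeq2, the test against the other expanded alleles 4 without the filter, and the age interaction 21 without the filter, 10 with DESeq2 and 4 without the lane term. All other alternatives, the replicate block included, gave 0 for these 3 tests. The cause was not tested.

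Of 2143 values of the 54 named precursors under alternatives, 30 changed sign, none of them from a called value. With outlying values replaced, the log2 change was -0.0847 for Mir141, 0.0184 for Mir192 and -0.13 for Mir200c. With Q20 alone it was -0.0542 for Mir22 and -0.38 for Mir124a-1. For Mir376c it was 0.10 without Q20 F1 and 0.11 with it coded as male. Without Q92 F2 and F4 it was -0.0503 for Mir141, -0.15 for Mir10b, -0.15 for Mir200c, -0.48 for Mir124a-1 and -0.23 for Mir410. Without F2, F3 and F4 it was -0.0181 for Mir143, -0.27 for Mir141, -1.38 for Mir10b, -0.35 for Mir200c, -0.26 for Mir375, -3.29 for Mir1a-1, -0.17 for Mir124a-1, 0.0506 for Mir615, -0.20 for Mir127 and -0.52 for Mir410. Leaving out single libraries gave -0.067 to 1.03 for Mir10b, -0.22 to 0.77 for Mir124a-1, -0.10 to 0.69 for Mir218-1, -0.0217 to 0.21 for Mir22, -0.0191 to 0.25 for Mir33, -0.61 to 0.10 for Mir376c and -0.0722 to 0.55 for Mir410. Depth limits precursors with few counts, among them Mir205 with 4 counts in its lowest library and Mir1a-1 with 0.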

Other observations

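Among the 5 Q92 livers left when F2, F3 and F4 were left out (a choice made after seeing the data), 0 precursors were called by edgeR and 19 had an unadjusted p below 0.05. The smallest p-values were those of Mir10b (log2 change -1.38 ± 0.39), Gm22133 (-1.16 ± 0.34) and Mir486 (-0.95 ± 0.28), each with an edgeR adjusted p of 0.353. Mir10b was at 178 CPM in F1, 385 in M1, 517 in M2, 798 in M3 and 561 in M4, with F1 and M1 below all 16 controls.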
